A study of Petromyzon marinus with 6 samples.

Results

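Sea lamprey (Petromyzon marinus) embryos collected 3 and 4 days after fertilization were compared, the 2 members of a series of 6 libraries. The series holds 1 paired-end RNA-seq library of whole embryos for each stage: days 1, 2 and 2.5 before this pair, and day 5 after it. No treatment or genotype is given in the labels. The day 3 library held 20769683 expected counts, which are the estimated numbers of reads or fragments from each transcript, and the day 4 library held 19845393. With 1 library a stage no difference has a replicate check, and every interval below covers counting error only. The labels do not say how many embryos or spawnings went into a library.

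Sea lampreys are jawless vertebrates. Early vertebrate embryos live on RNA that the mother placed in the egg. That RNA is removed in waves while the embryo's own genome begins to be transcribed. Lamprey embryos also discard part of their genome from the cells that form the body, while the germ line keeps it. The interval studied here asks which egg-stage transcripts were still falling, which young transcripts were still rising and which were first counted on day 4.

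The unit described is the component, a group of assembled contigs with the same identifier apart from its sequence number, because close copies and splice forms share reads. Of 87262 components, 31146 had 60 or more counts over the 6 libraries and were compared. The contigs carry no gene names. None of the identifiers matched the 45433 genes of the reference name table, so no pathway or cell type can be named, the whole-embryo label could not be checked against marker genes, and no sequence is shown. Levels are CPM values, which are counts relative to the scaled library total, and 1 count was worth 0.0549 CPM on day 3 and 0.0616 CPM on day 4. A component was called when it differed by 4-fold or more on the log2(CPM + 0.5) scale and when 1 lay outside the exact 95% counting interval (Clopper-Pearson) of its fold. The added 0.5 makes changes of low components look smaller. In whole embryos, fewer cells of a type and less RNA per cell cannot be told apart, and a lower level does not separate decay from dilution by other RNA.

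Between day 3 and day 4, 820 components were 4-fold higher and 634 were 4-fold lower. These were 2.63% and 2.04% of the 31146 compared. By the same rule the step before, from day 2.5 to day 3, had 5.17% higher and 2.40% lower, and the step after, from day 4 to day 5, had 1.32% and 0.844%. The higher ones went from 0.392% of all counts on day 3 to 2.28% on day 4, and the lower ones from 2.09% to 0.351%. The median higher component stood at 0.119 CPM on day 1, 0.769 CPM on day 3 and 7.97 CPM on day 4. The median lower component stood at 28.4 CPM on day 1, 13.3 CPM on day 3 and 1.97 CPM on day 4. By these medians the components that rose were scarce on day 1 and those that fell were abundant. Many lay near the threshold: 106 of the higher ones had a log2 fold of 2 to 2.1, with a median of 0.851 CPM on day 3 and 5.08 on day 4, and 141 others lay just outside at 1.9 to 2, with 0.934 and 5.05 CPM. On the lower side 166 lay just inside, with 9.09 and 1.82 CPM, and 197 just outside, with 9.23 and 1.97 CPM.

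Which direction held more components depended on the scaling of the libraries and on the minimum total count required for comparison. The share of called components that were higher was 56.4% with TMM factors, 66.1% with DESeq2 size factors, 49.0% with plain CPM and 44.4% with the deposited TPM. The median of all components moved by -0.05 on the log2 scale with TMM, by 0.04 with DESeq2, by -0.12 with plain CPM and by -0.14 with TPM. With the deposited TPM the counts were 883 higher and 1104 lower. Under all 4 scalings 592 components were called higher and 467 lower. Counted by contig, 2559 of 47525 were higher (5.38%) and 2507 were lower (5.28%). All these values were obtained with the minimum total count. Without that minimum, 672 components were higher and 825 lower, the reverse of the order found with it under TMM factors. By contig the counts without it were 2698 higher and 2836 lower, also the reverse.

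**Figure D1:**
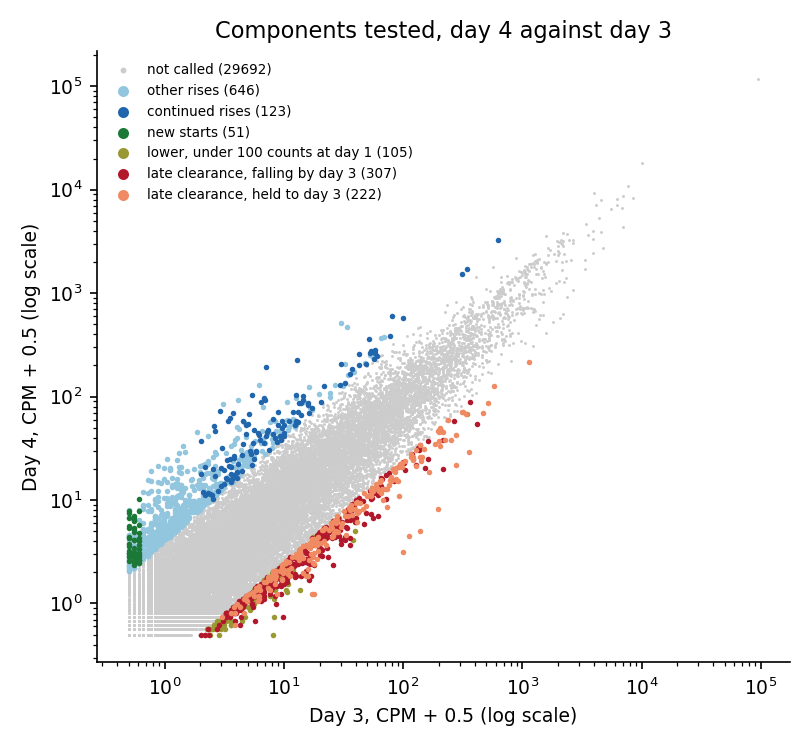
Level of each compared component on day 3 (horizontal, CPM + 0.5, log scale) and day 4 (vertical, CPM + 0.5, log scale), 1 library each; colours give the classes defined by the call rule and by earlier days, with the number of components in each. The 820 higher components lie mostly at low day 3 levels, and the 634 lower ones spread over low and high day 3 levels.

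Late clearance was defined as a 4-fold lower level on day 4 than on day 3 in a component with 100 or more counts on day 1. It covered 529 of the 14275 components with 100 or more counts on day 1, or 3.71%, while 96 of the same 14275, or 0.672%, were 4-fold higher. Among the 16871 components with fewer than 100 counts on day 1 the order was the opposite, with 105 lower (0.622%) and 724 higher (4.29%). Components with fewer than 60 counts on day 1 were compared only if later libraries brought the sum to 60. The part of this limit in the contrast was not tested. The 529 components held 6.58% of all counts on day 1, 5.32% on day 2, 4.74% on day 2.5 and 2.00% on day 3. They held 0.338% on day 4, with a counting interval of 0.336% to 0.341%, and 0.561% on day 5. Under all 4 scalings 392 of the 529 were called lower.

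The fall was graded by how abundant a component had been on day 1, a library that does not enter the fold. Of 5300 components with 100 to under 300 counts on day 1, 1.49% were 4-fold lower on day 4 and their median log2 fold was -0.14. Of 2745 with 1000 to under 3000 counts, 5.36% were lower and the median log2 fold was -0.32. Of the 236 with 10000 or more counts, 10.6% were lower, 0 were higher, and the median log2 fold was -0.67 (quartiles -1.35 and -0.10). Falls past 2-fold, called or not, went the same way, from 18.5% of the components in the lowest of these bins to 35.6% in the highest. The order of the 5 bins was the same under each of the 4 scalings, with medians of the highest bin from -0.55 to -0.77. Abundant components also had longer contigs, with a median longest contig of 1246 nt in the lowest bin and 3616 nt in the highest, and the part of length in the gradient was not tested. Low components also pass the call rule less easily.

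**Figure D2:**
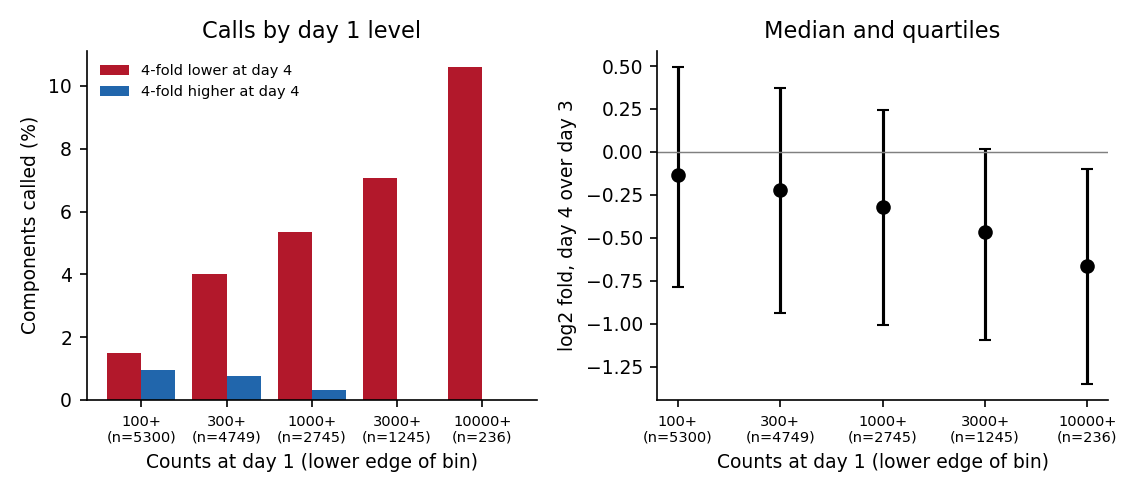
Left, percent of components 4-fold lower (red) and 4-fold higher (blue) on day 4 than on day 3, by counts on day 1. Right, the median log2 fold of each bin with its quartiles as bars (spread between components, not between replicates). The percent lower went from 1.49% in the lowest bin to 10.6% in the highest.

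The 529 components reached day 4 by different routes. In 222 the day 3 level was still at least 50% of the day 1 level, and in 14 of these it was more than 2-fold above it. In the other 307 it was already below that, and 132 of the 529 (24.95%) were 4-fold below day 1 on day 3. Of all 14275 components that met the same day 1 limit, 2099 (14.7%) were 4-fold below day 1 on day 3. That number depended on the scaling, with 1832 by DESeq2 size factors, 3129 by plain CPM and 3820 by TPM. The split into held and falling components is given for TMM factors only. The median of the 222 held components was 28.3 CPM on day 1, 33.3 on day 2, 29.7 on day 2.5 and 24.2 on day 3, then 4.37 on day 4 and 3.10 on day 5. The choice of the 222 fixed both their day 3 level against day 1 and their fall. The median of the 307 components that were falling earlier was 54.1 CPM on day 1, 37.4 on day 2, 31.5 on day 2.5, 12.7 on day 3, 1.91 on day 4 and 1.85 on day 5. The held components took 1.26% of the counts on day 3 and the falling ones 0.735%, although the falling ones had taken 4.87% on day 1 against 1.71% for the held ones. Of the 222 held components, 13 were 4-fold higher again on day 5, and the other 209 took 1.13% of the counts on day 3, 0.205% on day 4 and 0.128% on day 5. In 30 of the 529 the step from day 2.5 to day 3 had also been a 4-fold fall, beside 2.40% of all components.

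The held component with the most counts on day 3, a single contig of 3070 nt, had 871 CPM on day 1, 1211 on day 2, 1453 on day 2.5, 1134 on day 3, 216 on day 4 and 103 on day 5. Its day 3 level was 5.25 times that of day 4 (counting interval 5.07 to 5.45). The second, of 11 contigs, had 649.7, 1139, 500.1 and 581 CPM on days 1, 2, 2.5 and 3, then 126 on day 4 and 39.2 on day 5. The third, a single contig of 2010 nt, had 499, 608, 549 and 515 CPM on days 1, 2, 2.5 and 3, then 85.9 CPM on day 4 and 19.7 CPM on day 5, and was among 15 late-cleared components that were again 4-fold lower on day 5. In these 3, days 4 and 5 were the lowest libraries. The next 2 had instead been far higher on day 3 than on day 1. The fourth, of 2 contigs, had 20.9 CPM on day 1, 468 on day 3, 68.3 on day 4 and 49.1 on day 5. The fifth, a single contig of 1064 nt, had 43.3 CPM on day 1, 358 on day 3, 28.5 on day 4 and 798 on day 5, its highest library.

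Among the falling components the one with the most counts, a single contig of 3311 nt, had 3717 CPM on day 1, 2288 on day 2, 1573 on day 2.5, 417 on day 3, 53.7 on day 4 and 25.7 on day 5. Its level was lower at every later stage, and day 3 was 7.77 times day 4 (7.24 to 8.35). A single contig of 2737 nt went from 2225 CPM on day 1 to 785, 401, 216 and 19.3 CPM on days 2, 2.5, 3 and 4, and to 8.34 CPM on day 5. In both components the level on day 4 was a small part of what remained on day 3.

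How many late-cleared features fell below 3 counts on day 4 depended on the unit. By component 8 of the 529 did, and by contig 449 of 1358, at a limit that corresponds to 0.185 CPM in that library and that cannot show absence. From day 4 to day 5, 492 of the 529 stayed within 4-fold (not called), 15 (2.84%) were lower again and 22 (4.16%) were 4-fold higher, beside 0.844% lower and 1.32% higher among all components. That step shares the day 4 library with the fall. Without those 22 the late-cleared components numbered 507. These took 1.85% of the counts on day 3, 0.326% on day 4 and 0.235% on day 5.

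Measured against day 1 in place of day 3, day 4 was the stage at which the most components had dropped. Of the 14275 components with 100 or more counts on day 1, 195 were 4-fold below day 1 on day 2, 347 on day 2.5, 2099 on day 3, 3821 on day 4 and 3265 on day 5. These counts share the day 1 library, and day 4 had the most under each of the 4 scalings (3322 to 5639). Among all 31146 components the same drops were seen in 0.671%, 1.19%, 7.70%, 14.3% and 12.4%, in the order of the 5 later stages. In 2061 components the first such drop was seen on day 4, and 1416 of them (68.7%) were also 4-fold below day 1 on day 5. The 2061 had held 13.0% of the counts on day 1 and held 1.43% on day 4. Only 355 of them (17.2%) were 4-fold below day 3, so most crossed this line by a smaller last step.

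**Figure D3:**
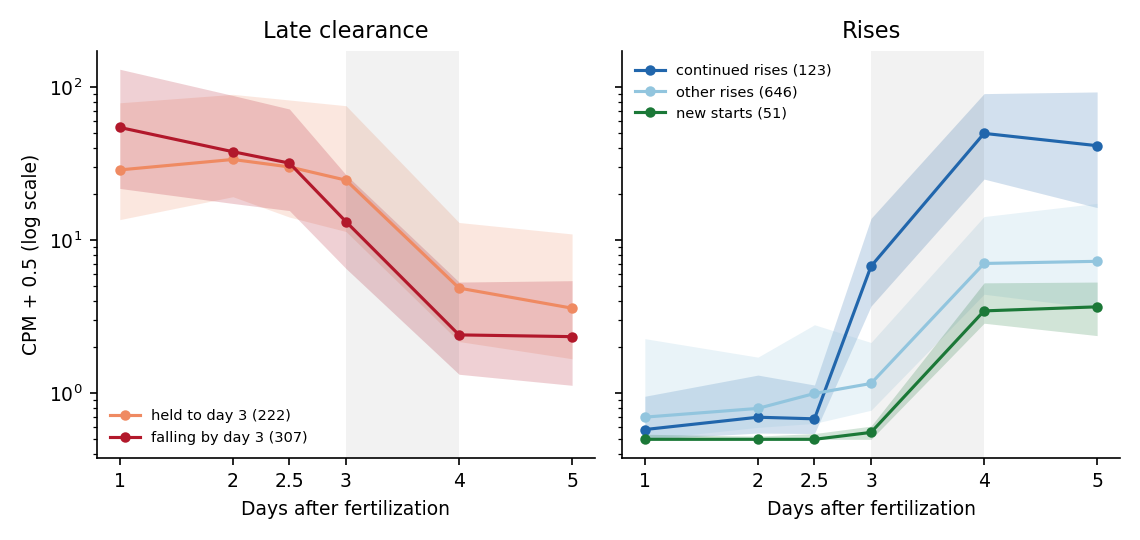
Median level (points and lines) and quartiles between components (bands) of each class over the 6 libraries, as CPM + 0.5 on a log scale; the grey strip marks day 3 to day 4. The median of the held components was 24.2 to 33.3 CPM up to day 3 and 4.37 CPM on day 4, while that of the continued rises went from 0.181 CPM on day 2.5 to 6.26 on day 3 and 49.5 on day 4.

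Continued rises were components 4-fold higher on day 4 than on day 3 that had also been 4-fold higher on day 3 than on day 2.5. There were 123, of 1611 that rose in the earlier step, or 7.64%, beside 2.63% among all components. Of the 749 that fell in the earlier step, 37 (4.94%) were also 4-fold higher on day 4. Both steps use the day 3 library. Of the others among the 1611, 1444 stayed within 4-fold of day 3 and 44 (2.73%) were 4-fold lower, beside 2.04% lower among all components. The 1611 together took 22.6% of the counts on day 3 and 30.2% on day 4. The group as a whole thus went on gaining, mostly by less than 4-fold. It includes the most abundant component, at 21597 CPM on day 2.5 and 95158 on day 3. That component alone held 9.11% of the counts on day 1, 2.60% on day 2.5, 8.34% on day 3 and 9.72% on day 4. The 123 continued rises went from 0.00958% of the counts on day 2.5 to 0.258% on day 3, 1.35% on day 4 and 1.73% on day 5. They held most of the counts gained by the 820 higher components. Their 5 most abundant members held 46.5% of the class on day 4. On day 4, 28 of the 123 had 100 CPM or more, against 3 on day 3.

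The most abundant continued rise, a component of 4 contigs with a longest contig of 2621 nt, had 0.833 CPM on day 1, 2.96 on day 2, 4.47 on day 2.5, 629 on day 3, 3270.5 on day 4 and 6994 on day 5. Day 4 was 5.20 times day 3 (5.10 to 5.31). A single contig of 2177 nt had 1, 12 and 14 counts on days 1, 2 and 2.5, then 345 CPM on day 3, 1715 on day 4 and 2306 on day 5. A component of 3 contigs had 314 CPM on day 3, 1535 on day 4 and 1594 on day 5 after 1.54 CPM on day 2.5. On day 2.5 none of these was above 4.47 CPM, and on day 4 none was below 1535 CPM. From day 4 to day 5, 106 of the 123 stayed within 4-fold, 16 (13.0%) were 4-fold lower and 1 (0.813%) was 4-fold higher, beside 0.844% lower and 1.32% higher among all components. Those 16 are among the 59 components, described at the end, that were 4-fold lower again on day 5.

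The 2 components with the largest rise from day 3 to day 4, among called components whose higher library held 100 or more counts, were lcl|comp289623_c0 and lcl|comp208804_c1. The first, of 12 contigs with a longest contig of 1729 nt, had 0 counts on day 1, 0.247 CPM on day 2, 0.271 on day 2.5, 2.58 on day 3, 83.9 on day 4 and 160 on day 5. It was 32.5 times higher on day 4 than on day 3 (24.3 to 44.5), a log2 fold of 4.78. The second, a single contig of 1271 nt, had 0 counts on day 1, 0.148 CPM on day 2, 0.0452 on day 2.5, 6.64 on day 3, 192 on day 4 and 296 on day 5. It was 29.0 times higher (24.1 to 35.0), a log2 fold of 4.75. Both stood higher on day 5 than on day 4, by less than 4-fold.

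New starts, with fewer than 3 counts in each library up to day 3 and 30 or more on day 4, were few and low when counted by component. There were 51, which is 0.164% of the components compared. They held 0.000241% of the counts on day 3, 0.0155% on day 4 (counting interval 0.0149% to 0.0160%) and 0.0173% on day 5. Their day 4 counts ran from 30 to 158, and 15 of them had 0 counts on day 3. The median was 2.96 CPM on day 4 and 3.17 CPM on day 5. From day 4 to day 5, 48 of the 51 stayed within 4-fold, 3 (5.88%) were 4-fold lower and 0 were higher. Among all components 0.844% were lower and 1.32% higher in that step. A component also needed 60 or more counts over the 6 libraries to be compared. New starts with few day 4 counts could reach this only with counts on day 5, so their persistence was partly fixed by the choice. The largest, a single contig of 1736 nt, had 0 counts on days 1, 2 and 2.5, 2 on day 3, 158 on day 4 and 147 on day 5. A component of 6 contigs had 0 counts in every library up to day 3, 120 on day 4 and 149 on day 5. The start was therefore seen in both later libraries for these components. By contig there were 299, which held 0.166% of the counts on day 4, and the highest had 3250 counts.

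By a limit of 3 counts, most components that rose were not new. Of the 820, 440 already had 3 or more counts on day 1, 125 first did so on day 2, 84 on day 2.5, 118 on day 3 and 53 on day 4. The 440 held 1.59% of the counts on day 4, against 0.0158% for the 53. By a stricter limit of 30 counts, 405 of the 820 (49.4%) were first seen on day 4 and 6 (0.732%) on day 5. At that limit it was no longer true of most.

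The other 646 rises were neither continued nor new. They went from 0.135% of the counts on day 3 to 0.911% on day 4 and 1.16% on day 5. Of these, 93 had 100 or more counts on day 1, 287 had 3 to 99 and 266 had fewer than 3. The median of the 93 was 11.2 CPM on day 1, 7.01 on day 2, 6.37 on day 2.5, 4.72 on day 3, 28.6 on day 4 and 35.3 on day 5. Single members could differ from these medians. The most abundant of the 93 on day 4, a component of 2 contigs, had 19.4, 12.2, 12.7 and 29.7 CPM on days 1, 2, 2.5 and 3, then 519 CPM on day 4 and 831 on day 5. Day 4 was 17.5 times day 3 (16.0 to 19.1).

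**Figure D4:**
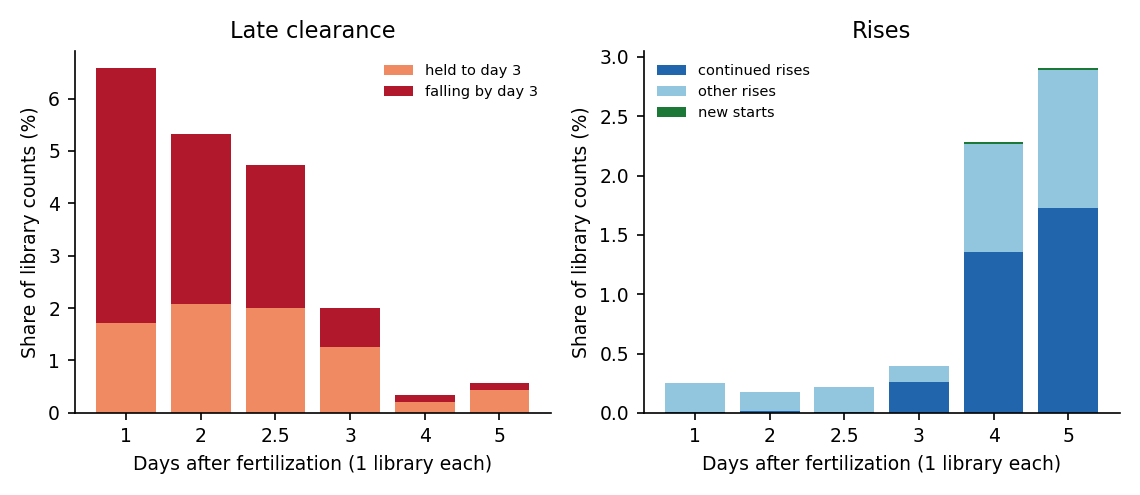
Share of all counts (percent, stacked bars from 0) held by each class in each library, with late clearance on the left and rises on the right; the vertical scales differ. Late clearance held 2.00% on day 3 and 0.338% on day 4, while continued rises held 0.258% and 1.35% and new starts reached 0.0155%.

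Of the 820 rises, 743 stayed within 4-fold from day 4 to day 5, 18 (2.20%) were 4-fold higher again and 59 (7.20%) were 4-fold lower. Among all components 1.32% were higher and 0.844% lower in that step, which shares the day 4 library with the rise. The 37 of the 820 named above had fallen 4-fold from day 2.5 to day 3 before they were higher on day 4. Of those 37, 31 belonged to 96 components in which days 2.5, 4 and 5 each lay more than 4-fold above days 1, 2 and 3. Without the 96, 784 components were higher on day 4. Whether the 96 are transcripts of the embryo was not tested.

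The 4-fold changes carried only part of the counts that moved. Summed over all components, 19.7 percentage points of the library shifted between components from day 3 to day 4. The called components gained 1.89 points and lost 1.74. Those not called that were 2-fold or more higher, 3147 components, gained 4.64 points, and the 4119 that were 2-fold or more lower lost 6.94 points. Components within 2-fold gained 12.8 points and lost 10.8. The most abundant component alone gained 1.38 points, from 8.34% to 9.72%, with a log2 fold of 0.32.

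Among the 10 components with the largest gain in share, 1 was called, the most abundant continued rise, beside 2.63% called higher among all components. The gains and losses listed here were ranked by the same 2 libraries that set the call. The second largest gain was in a single contig of 4107 nt with 0.880% of the counts on day 3 and 1.48% on day 4, a log2 fold of 0.85. The third, a single contig of 1307 nt, held 0.183%, 0.329%, 0.402% and 0.347% of the counts on days 1, 2, 2.5 and 3, then 0.760% on day 4 and 0.233% on day 5. It was thus highest on day 4 alone. None of the 10 largest losses was called, beside 2.04% called lower among all components. The largest, a single contig of 2624 nt, held 0.473%, 0.650%, 0.560% and 0.607% of the counts from day 1 to day 3, 0.357% on day 4 and 0.155% on day 5. The fifth largest, a single contig of 5858 nt, went from 0.234% on day 1 to 0.194% on day 3, 0.0520% on day 4 and 0.0214% on day 5, a log2 fold of -1.80 from day 3 to day 4. All 10 components that lost most were lower again in share on day 5.

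The largest falls by fold were of another kind. Of the 12 largest, among called components with 100 or more counts in either library, 10 were 4-fold higher again on day 5. Among all components 1.32% were higher in that step. It shares the day 4 library with the fall, and the 12 were chosen for a low day 4 against day 3. The 2 largest, by the same rule as for the rises, were lcl|comp291649_c11 and lcl|comp291649_c5, which carry the same assembler number. The first, a single contig of 576 nt, had 19.7 CPM on day 1, 23.5 on day 2, 25.1 on day 2.5, 100.1 on day 3, 2.65 on day 4 and 210 on day 5. Day 3 was 37.8 times day 4 (28.0 to 52.4), a log2 fold of -5.00. The second, of 2 contigs with a longest contig of 836 nt, had 26.9, 25.3, 29.1 and 139 CPM on days 1, 2, 2.5 and 3, then 4.56 CPM on day 4 and 350 CPM on day 5. Day 3 was 30.5 times day 4 (24.2 to 39.0), a log2 fold of -4.79. In both, day 4 alone was low and day 5 was the highest library.

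In all, 54 components were 4-fold lower on day 4 than on day 3 and 4-fold higher on day 5 than on day 4. They held 0.164% of the counts on day 3, 0.0128% on day 4 and 0.374% on day 5, and 47 of the 54 were called lower under all 4 scalings. Of the 12 compared components with the assembler number of the named pair, 4 were among the 54. The same 1-library dip was seen in 12 components on day 2 (0.0385%), 58 on day 2.5 (0.186%) and 37 on day 3 (0.119%). The 54 on day 4 were 0.173% of all components compared. Day 4 was thus not the stage with the most dips, though days 2.5 and 4 were close. The step from day 1 to day 2 had 4.27% higher and 0.671% lower, and the step from day 2 to day 2.5 had 0.642% higher and 0.295% lower. The most abundant of the 54 on day 3 was the contig of 1064 nt given above, and the next, a single contig of 814 nt, had 279 CPM on day 3, 21.3 on day 4 and 774 on day 5.

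The 54 fell into sets by their early levels. In 22, already counted above as late clearance, the day 1 library held 100 or more counts. In 23, the libraries of days 1 and 2 each held fewer than 3 counts, and the median was 7 counts on day 2.5, 47 on day 3, 3 on day 4 and 181 on day 5. In this set of 23, day 3 stood at a median of 0.184 of the day 5 CPM (quartiles 0.133 and 0.209, range 0.112 to 0.536). No contig sequence was used here, so whether these 23 are transcripts of the embryo was not tested. In the 22 the same quotient had a median of 0.626 (quartiles 0.447 and 0.972). The other 9 had fewer than 100 counts on day 1 and 3 or more on day 1 or day 2. Without the 54, 580 components were 4-fold lower on day 4.

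**Figure D5:**
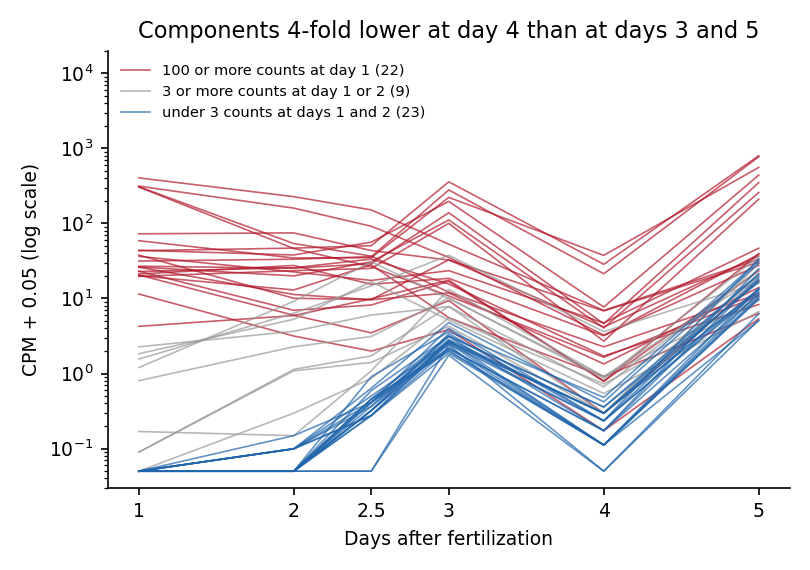
Level of each of the 54 components 4-fold lower on day 4 than on days 3 and 5 (1 line each, CPM + 0.05, log scale), coloured by their counts on days 1 and 2. All lines drop on day 4, and the 23 components with fewer than 3 counts on days 1 and 2 start near the bottom of the scale.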

How the data were processed

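The libraries were prepared with NEBnext and sequenced as paired ends, per the labels' protocols. Per the submitters' processing notes the authors used RSEM, with version, aligner and assembler not given in the sources used here. The deposited expected counts are estimated numbers of reads or fragments per contig. The deposited TPM values are scaled by effective length, per the file headers. The contig lengths are those of the deposited files. FPKM was not used.

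Expected counts were rounded, then summed by component. TMM factors (edgeR 4.0.16) of the 31146 components were 0.877 at day 3 and 0.819 at day 4. Alternatives were DESeq2 1.42.0 size factors, plain CPM, the deposited TPM, a pseudocount of 5 CPM, 8-fold, no filter, and other class limits. For TPM the interval was scaled by each component's own ratio of counts to TPM. No test across replicates was possible, and intervals are exact Clopper-Pearson counting intervals at 95%. The call rule was tested on simulated data with counting noise only, which cannot show how it behaves under spread between embryos or libraries. Analyses ran in R 4.3.3 and in Python 3.11.15 with pandas 2.3.3 and scipy 1.17.1.

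The members, classes and limits were chosen with earlier results of these data known. At most 2 components in each direction are named by identifier: those with the largest log2 fold among called components whose higher library held 100 or more counts. Others are described without identifier: the 10 with the largest gain or loss in share, and some of the 5 most abundant of each class.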

Additional observations from a re-analysis of the deposited data

How the results depend on the processing

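Of 53 alternative values, 32 were within 1.5 times the reported count and 21 moved further. This comparison covered the size of each count only. Which direction held more components depended on the scaling and on the minimum total count, as given above. Without that minimum 701 components were late-cleared, against 529 with it. With a pseudocount of 5, by which folds of low features become smaller, 312 contigs were higher and 222 lower, 114 components were higher and 82 lower, 79 were late-cleared, 17 were continued rises and 0 were new starts. At 8-fold, which is stricter by construction, the counts in the same order were 901, 696, 160, 32, 26, 8 and 17. With the deposited TPM 1104 components were lower, and the cause was not tested. By contig, where more features are counted, 1358 were late-cleared, 240 were continued rises and 299 were new starts. Continued rises numbered 401 when day 3 had only to be 2-fold above day 2.5. New starts numbered 8 with 0 counts in every library up to day 3, and 7 with 100 or more counts on day 4. Leaving out components that were back up or lower again on day 5, or those counted mainly on days 2.5, 4 and 5, was chosen after seeing the data and kept each count within 1.5 times. No paired analysis was possible because there was 1 library a stage. A count under 3 does not show absence.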

Other observations

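Within components, contigs often moved when their sum did not. Of the 2559 contigs higher on day 4, 1639 (64.1%) lay in components that were not called, as did 1763 of the 2507 lower contigs (70.3%). In 416 of the 31146 components compared, 1 or more contigs were 4-fold higher while another was 4-fold lower. Of these 416, 403 were not called. Among all components compared 95.3% were not called, so 403 of 416 is near that share. Of 5248 components of several contigs with 100 or more counts at both stages, 1100 (21.0%) had a different main contig on day 4 than on day 3. In 456 of the 5248 (8.69%) the main contig differed and held 50% or more of the component's counts at each stage. RSEM divides shared reads among near-identical contigs, and its part in these values was not tested.

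The list of abundant components also turned over. Of the 100 with the most counts on day 3, 71 were among the 100 on day 4. Of the 29 that entered, 3 were called higher, and of the 29 that left, 0 were called lower. Among all components 2.63% were higher and 2.04% lower, so 0 of 29 is near that share. The lists were ranked by the same 2 libraries that set the calls, so these shares are not an independent background for them. In the list of 1000, 25 of the 207 that entered were called higher and 27 of the 207 that left were called lower. The 100 of day 3 held 30.3% of the counts on day 3, and the 100 of day 4 held 34.4% on day 4.

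The 59 components that were 4-fold higher on day 4 and 4-fold lower again on day 5 held 0.0112% of the counts on day 3, 0.103% on day 4 and 0.0126% on day 5. They were 0.189% of all components compared. The same 1-library peak was seen in 59 components on day 2 (0.189%), 141 on day 2.5 (0.453%) and 44 on day 3 (0.141%). Day 4 was thus not the stage with the most peaks. In 29 of them the day 2.5 library held fewer than 3 counts although day 2 held 3 or more. These 29 together had 251 counts on day 1, 431 on day 2, 12 on day 2.5, 1475 on day 3, 14001 on day 4 and 1102 on day 5. Whether these 29 are transcripts of the embryo was not tested, since no contig sequence was used here. The most abundant of the 59, a single contig of 5494 nt, had 13, 29, 1, 90, 1662 and 93 counts in the 6 libraries in order of stage.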
